A study of Danio rerio with 20 samples.

Results

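A set of 87 of the 43603 probes on a zebrafish expression array gave a brighter signal in *rnaset2* mutants than in WT siblings as embryos and larvae, while the adult brain of the mutants stayed within 2-fold of WT. The members were selected on these same measured values, for d, the mean log2 intensity of mutant arrays minus that of WT arrays at a stage. A probe was kept where d was at least 1 (2-fold) both at 28 hours post-fertilisation (hpf) and at 3 days post-fertilisation (dpf), where its size was under 1 in adult brain, where every mutant array lay above every WT array at both embryo stages, and where the mutant mean intensity reached 100 at both. All mutant against WT values at the 3 stages, brain included, are therefore a description. Where the calls of a fit over all probes are printed for them, they stand beside the share of all probes called and nothing is read from them.

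Expression was profiled with one dye on 20 arrays in 6 groups. Whole embryos at 28 hpf gave 4 mutant and 4 WT samples, whole larvae at 3 dpf gave 3 and 3, and dissected whole brains of 1-year-old adults gave 3 and 3. The mutants carried the AO127 allele, made by chemical mutagenesis in a line that was later lost, and the WT fish were their siblings. No treatment is given for any group. Each embryo sample was a pool of animals without their chorions, and no source used here says whether the pools came from separate clutches or how many brains made a sample. The 28 hpf replicates are numbered 1, 1.1, 2 and 3. Samples 1 and 1.1 were the closest pair in each genotype and were counted here as separate samples. Over all probes, the SD of their log2 differences was 0.325 in mutants, where the other pairs gave 0.337 to 0.398. In WT it was 0.389, where the others gave 0.392 to 0.457. Over the 87 probes the same SD was 0.0875 in mutants, where the other pairs gave 0.169 to 0.564, and 0.176 in WT, where the others gave 0.211 to 0.289. Whether 1 and 1.1 are repeats of 1 pool is not stated and cannot be told from these SDs, so n = 4 may hold 3 pools. With the pair averaged, the rule chose 87 probes, 84 of them the same. One label field gives the embryos as 28 dpf where the others say 28 hpf. The p-values and standard errors (SE) below rest on 1 estimate of the spread per probe, shared by all 6 groups. They are not the spread of only the 2 groups compared. They also count samples 1 and 1.1 as separate.

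RNaseT2 is a ribonuclease of the lysosome, the compartment in which cells break down RNA and other material they have taken up or set aside for recycling. Without it ribosomal RNA collects in lysosomes, and in people its loss causes a leukoencephalopathy, a disease of the white matter of the brain. Microglia, the resident macrophages of the brain, engulf the neurons that die during development and digest them in their lysosomes. Between 28 hpf and 3 dpf a zebrafish embryo hatches, completes most of its organs and begins to swim.

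No table used here pairs the probes of this array with genes or sequences (0 of the 87 matched), so the members stand without gene names, cell type markers could not be read, and the level of *rnaset2* was not analysed here. The 2 highest-ranked probes are given by their identifiers and the others by their rank from 1 to 87, where rank 1 has the highest smaller-of-2 value of d over 28 hpf and 3 dpf. Several probes can belong to 1 gene, so 87 probes are not 87 genes. Intensities of different probes depend on the probe as well as on the transcript. In whole embryos and dissected tissue, more cells of a type and more RNA per cell cannot be told apart.

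The rule narrowed the array in steps. At both embryo stages 485 probes were at least 2-fold higher in mutants. Of these, 283 stayed within 2-fold in adult brain, 172 were at least 2-fold higher in mutant brain as well, and 30 were at least 2-fold lower there. In 226 of the 283 every mutant array lay above every WT array at both embryo stages, and 139 of the 226 fell under the floor of 100 in mutant mean intensity. The 3 members just inside the threshold had a smaller d of 1.00, 1.01 and 1.01, and the 3 probes just outside it had 0.99, 0.99 and 0.98.

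Across the 87 probes, the median d was 1.38 at 28 hpf (range 1.00 to 6.31), 1.47 at 3 dpf (1.01 to 5.40) and 0.32 in adult brain (-0.71 to 0.98). Over all 43603 probes the medians of d were 0.01, -0.08 and -0.01. Of the 87, 38 lay between 2-fold and 3-fold at both embryo stages, and 5 reached 4-fold at both. At 28 hpf 23 members reached 3-fold, 9 reached 4-fold and 2 reached 8-fold, against 39, 27 and 8 at 3 dpf. The limma fit over all probes called 18.7% of them higher in mutants at 28 hpf and 23.0% at 3 dpf (Benjamini-Hochberg adjusted p under 0.05). It called all 87 members at both stages, which the rule brought about.

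The median intensity of the 87 probes was taken on each array. At 28 hpf it was 360 for mutant replicate 1, 328 for 1.1, 342 for 2 and 318 for 3, and 118, 122, 129 and 122 for the WT replicates in the same order. At 3 dpf it was 860, 883 and 789 in mutants and 244, 262 and 276 in WT. The group means were 337 ± 18.2 (SD, n = 4) against 123 ± 4.70 (n = 4) at 28 hpf and 844 ± 49.1 (n = 3) against 261 ± 16.0 (n = 3) at 3 dpf. In adult brain the arrays gave 865, 702 and 732 in mutants (767 ± 86.9, n = 3) and 528, 621 and 581 in WT (577 ± 46.4, n = 3), so the mutant brain arrays also lay above the WT ones, by a smaller margin. The median over all probes was 258 on each of the 20 arrays, since the authors had normalized them to a common distribution.

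The probe ranked first, A_15_P182221, was very dim in WT embryos at 28 hpf and among the brightest on the array in brain. At 28 hpf its intensity was 730, 707, 447 and 30.1 in mutant replicates 1, 1.1, 2 and 3, and 6.49, 6.93, 2.45 and 2.37 in the WT replicates. Mutant replicate 3 was far below the other mutant arrays and still above every WT array. At 3 dpf it was 3344, 3064 and 2892 in mutants and 89.7, 60.6 and 86.7 in WT, with no overlap. In adult brain it was 401646, 385368 and 418912 in mutants and 401646, 414712 and 401646 in WT, and the groups overlapped. The value 401646 recurred on mutant replicate 1 and WT replicates 1 and 3, since the normalization gives the same value to the same rank. Whether a ceiling of the scan hid a brain difference of this probe was not tested. Its d was 6.17 at 28 hpf (71.9-fold), 5.31 at 3 dpf (39.8-fold) and -0.02 in brain. The WT intensities at 28 hpf were near the lowest on the array (2.14), so the size of that d depends on how the lowest values are scaled: on log2(intensity + 50) it was 2.85 at 28 hpf and 4.62 at 3 dpf. In WT fish its mean log2 intensity was 12.35 higher in adult brain than at 3 dpf.

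Second in rank, A_15_P385830 differed most at the earlier stage. Its intensity at 28 hpf was 1130, 1126, 1320 and 1246 in mutants and 18.8, 10.0, 18.97 and 14.7 in WT, so the replicates were tight within each genotype. At 3 dpf the values were 504, 639 and 363 in mutants and 54.3, 38.4 and 48.2 in WT. In adult brain they were 1342, 1650 and 1864 in mutants and 821, 756 and 1103 in WT, again with every mutant array above every WT array. Its d was 6.31 at 28 hpf (79.4-fold), 3.39 at 3 dpf (10.5-fold) and 0.86 in brain (1.82-fold), and without the WT brain replicate 3 the brain value was 1.03, past the limit of the rule. From 28 hpf to 3 dpf its mean log2 intensity was 1.62 higher in WT, and in mutants it differed by -1.298, from the same values that gave d.

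The probes ranked 3 and 4 were raised more at 3 dpf and were dim in brain in both genotypes. The rank 3 probe gave 225, 202, 262 and 246 in mutants at 28 hpf against 27.3, 33.9, 40.1 and 32.4 in WT, and 552, 380 and 388 at 3 dpf against 11.7, 20.2 and 18.9. In adult brain it gave 36.2, 31.0 and 32.2 in mutants and 28.8, 27.9 and 46.2 in WT, which overlap (d of 2.81, 4.72 and -0.01). Its WT level thus stayed between 11.7 and 46.2 on every array, and the mutant level left that range in embryos and larvae only. For the rank 4 probe the mutant larvae gave 1228, 1431 and 1213 at 3 dpf against 30.0, 30.5 and 30.6 in WT, the highest d of any member at that stage (5.40). At 28 hpf it gave 225, 228, 224 and 267 against 56.2, 79.1, 44.4 and 39.9, and in brain the mutant values of 66.8, 98.4 and 205 overlapped the WT values of 150, 66.3 and 68.6.

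Rank and size did not run together at both stages. Of the 87 members, 52 had the larger d at 3 dpf and 35 at 28 hpf, and the values were over 1 apart in 13 that were higher at 3 dpf and in 3 that were higher at 28 hpf. The largest gap belonged to the probe ranked 4, followed by that ranked 60, whose d was 1.12 at 28 hpf and 4.09 at 3 dpf. The latter gave 144, 153, 134 and 155 in mutants at 28 hpf against 76.6, 71.3, 67.7 and 56.3 in WT, and 1883, 2043 and 2082 at 3 dpf against 91.7, 137 and 129. Across the members, d at 28 hpf and d at 3 dpf had a Pearson r of 0.50 and a Spearman rho of 0.17 (n = 87 probes sharing the same arrays), so the linear value reflects a few extreme probes. With d in brain, d at 28 hpf gave a rho of -0.11 and d at 3 dpf a rho of -0.11.

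Brightness varied widely above the floor of the rule, without reaching the brightest probes of the array in embryos. Member means in mutants ran from 101 to 61599 at 28 hpf and from 104 to 21988 at 3 dpf. Over all probes they reached 579349 and 575891. The mutant mean was over 10000 at both embryo stages in 5 members and under 200 at both in 5. In WT, 34 members lay under 100 at 28 hpf and 21 at 3 dpf, 16 of them at both.

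The bright members included a group of probes that shared a profile. The probes ranked 9, 11 and 23 deviated together from their group means over the 20 arrays (Pearson r of 0.89 to 0.94, n = 20 arrays, 14 residual degrees of freedom). They were likewise brighter at 28 hpf than at 3 dpf in both genotypes. For rank 11 the 28 hpf intensities were 38935, 41569, 39491 and 43397 in mutants and 11488, 10571, 11170 and 10338 in WT, and the 3 dpf intensities 19196, 23111 and 22879 against 6839, 7201 and 7024. Its brain arrays gave 13353, 11831 and 9692 in mutants and 6441, 7411 and 6521 in WT, with no overlap, and a d of 0.77. The 3 probes had d of 1.69 to 2.08 at 28 hpf, 1.41 to 1.81 at 3 dpf and 0.65 to 0.77 in brain. Pairs this alike (r over 0.9) made up 4 of the 3741 pairs of members (0.107%), against 0.0110% of the pairs of a member with any probe on the array. The other 2 pairs joined ranks 22 and 60, and ranks 56 and 67. Ranks 22 and 60 did not share a profile of levels. From 28 hpf to 3 dpf the mutant mean went from 769 to 407 in rank 22 and from 147 to 2003 in rank 60. In WT the means went from 289 to 115 and from 68.0 to 119. Both were high in WT brain replicate 1 (110 and 105), where the other WT brain arrays gave 30.9 to 38.0. Ranks 19 and 25 had levels like those of ranks 9, 11 and 23 but were in none of these pairs. Their means at 28 hpf were 22940 and 34219 in mutants against 7049 and 10407 in WT. At 3 dpf they were 11917 and 18559 against 4435 and 7047, and their brain d was 0.41 and 0.67. Whether such probes read 1 transcript cannot be read without their annotation.

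In adult brain the members lay inside the limit that the rule set. The brain d was above 0 in 71 of 87 (81.6%), against 49.1% of all probes, and within 0.1 of 0 in 12. In brain, every mutant array lay above every WT array for 29 members, where 20.1% of all probes did so, and below for 3, where 19.7% did so. The limma fit called 38 higher and 4 lower in mutant brain, against 17.6% and 17.8% of all probes. These brain values entered the rule through its limit on the size of d, both above and below 0, and nothing is read from their shares.

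The stages were also compared within each genotype, a contrast the rule did not use, on arrays that it did use. From 28 hpf to 3 dpf, the WT signal rose in 52 of the 87 (59.8%) and fell in 24 (27.6%), against 26.8% and 33.9% of all probes (limma, adjusted p under 0.05 over all probes). The median WT change was 0.57 on the log2 scale (range -2.43 to 4.43), against -0.08 for all probes. In mutants 54 rose (62.1%) and 23 fell (26.4%), against 28.5% and 42.0% of all probes, with a median change of 0.60. The floor of the rule was set on the mutant intensity, and 34 WT means were under 100 at 28 hpf, so these counts are open to the choice of probes. By genotype, 46 members rose in both, 19 fell in both, 3 rose in WT and fell in mutants, and 3 fell in WT and rose in mutants. These joint counts were not taken over all probes, and the WT and mutant changes differ by the values of d that chose the members. Nothing is read from them.

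Adult brain showed a wider range. The WT signal was higher in brain than at 3 dpf in 51 members (58.6%) and lower in 23 (26.4%), against 44.8% and 35.0% of all probes (limma, adjusted p under 0.05). The median difference was 0.94 on the log2 scale, against 0.18 for all probes, and the range ran from -10.19 to 12.35. The rule chose probes that were lower in WT than in mutant larvae, which can itself raise the count that was higher in brain. Whole larvae and dissected brain differ in tissue as well as in age, and these cannot be told apart.

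With a limit of 4-fold, chosen after the values were seen, 31 members were higher in WT brain than in WT larvae, 11 were lower and 45 lay between. The 11 made up 12.6% of the members, near the 12.3% of all probes that were 4-fold lower in brain. Among probes with a mutant mean of at least 100 at both embryo stages, 15.6% were 4-fold lower in brain. The 31 made up 35.6% of the members, where 12.5% of all probes and 7.65% of the 25756 probes with a mutant mean of at least 100 at both embryo stages were 4-fold higher in brain. Of the 78 probes that met the embryo criteria and were also at least 2-fold higher in mutant brain, 14.1% were, and of the 96 that met the mirrored rule, lowered in mutant embryos, 0%. Choosing probes that were lower in WT than in mutant larvae can itself raise this share, and the mirrored choice can lower it. The share was therefore also read against the mutant larvae, where 15 members (17.2%) were 4-fold higher in WT brain. On that reading it was 10.7% of all probes, 5.42% of those over the floor, 3.85% of the 78 and 14.6% of the 96. The mirrored rule chose probes that were low in mutant larvae, which can raise its share on that reading. The 78 were chosen for a WT brain below the mutant brain, which can lower their share on both readings. No test was made between these sets, since WT larvae and WT brain entered the rules that chose them.

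In the 31 brain-high members the median WT intensity was 103 at 28 hpf, 266 at 3 dpf and 3249 in brain, and the median mutant intensity was 286, 816 and 4105. The mutant medians at both embryo stages lay under the brain median of either genotype. Since the 31 were chosen for a WT brain mean at least 4-fold over WT larvae, that choice can itself bring about this order. It can also lower the excess given next as a share of the WT brain level, so both are a description. The excess of mutant over WT was between 0.117% and 133% of the WT brain level at 28 hpf (median 5.18%) and between 0.352% and 54.0% at 3 dpf (median 16.7%). Besides A_15_P182221, the widest contrast was in the probe ranked 35. It gave 1856, 1946, 1871 and 1643 in mutants at 28 hpf against 679, 706, 820 and 773 in WT, and 1055, 1228 and 1027 at 3 dpf against 189, 242 and 239. In brain it reached 286313, 259994 and 292457 in mutants and 265095, 265881 and 219039 in WT, which overlap. A ceiling of the scan was not tested here either. This probe fell in WT from 28 hpf to 3 dpf, by 1.74 ± 0.10 (SE) on the log2 scale (limma adjusted p = 4.5e-10). It was picked after its values were seen, on arrays that the rule used, so the p-value is a description.

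The brain-high probes ranked 8 and 39 gave similar levels at 3 dpf and in brain and less similar ones at 28 hpf. At 28 hpf rank 8 gave 368, 391, 351 and 335 in mutants and 104, 94.2, 117 and 98.4 in WT, and rank 39 gave 294, 298, 328 and 309 against 132, 122, 136 and 121. At 3 dpf rank 8 gave 3292, 3583 and 3055 in mutants and 321, 378 and 414 in WT, and rank 39 gave 2956, 3063 and 2658 against 355, 367 and 392. In brain rank 8 gave 20819, 23888 and 26482 in mutants and 19196, 18335 and 19103 in WT, and rank 39 gave 20276, 24062 and 26403 against 19762, 19420 and 18178. The d of the 2 probes were 1.81 and 1.27 at 28 hpf, 3.16 and 2.96 at 3 dpf, and 0.32 and 0.29 in brain. Their deviations from the group means did not reach the r of 0.9 used above.

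Among all probes high in WT brain, members or not, the share at least 2-fold higher in mutant larvae was above that of all probes. Of the 5445 probes at least 4-fold higher in WT brain than in WT larvae, 28.8% were at least 2-fold higher in mutants at 3 dpf and 1.60% at least 2-fold lower, where 8.16% and 5.97% of all probes were. Their median d at 3 dpf was 0.59, against -0.08 for all probes. At 28 hpf their median d was 0.07 against 0.01, with 6.54% at least 2-fold higher and 3.07% at least 2-fold lower, against 2.89% and 2.84%. The 5445 had no floor on intensity. In the 752 of them with a WT brain mean over 10000, 3.32% were at least 2-fold higher at 28 hpf, near the share of all probes, and 0.798% lower. At 3 dpf 34.2% of the 752 were at least 2-fold higher and 0.532% lower. The WT larvae stand in both quantities of the 3 dpf values, which can by itself move them together, and no cause was tested.

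The 45 members within 4-fold had median WT intensities of 179, 224 and 267 at 28 hpf, at 3 dpf and in brain, and mutant medians of 441, 596 and 342. The brightest of all members at 28 hpf was among them. This probe, ranked 57, gave 60324, 63030, 60681 and 62360 in mutants and 22518, 23195, 20941 and 21911 in WT at 28 hpf. At 3 dpf it gave 12740, 10789 and 14406 against 5653, 6580 and 5039, and in brain 2635, 2447 and 2638 against 2599, 2461 and 2682. It fell with age in both genotypes, by 1.95 ± 0.09 (SE) in WT and 2.29 ± 0.09 in mutants from 28 hpf to 3 dpf (limma adjusted p = 1.9e-11 and 1.1e-12), and the genotypes overlapped only in brain. Because the probe was picked for its level at 28 hpf, on arrays that the rule used, these p-values are a description.

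The 11 brain-low members, whose share was near that of all probes, were dim in adult brain. Their median WT intensity was 82.5 at 28 hpf, 594 at 3 dpf and 24.6 in brain, and their mutant medians were 188, 2085 and 21.01. Probe by probe, the brain d was above 0 in 9 of the 11, with a median of 0.47. In 3 of them the WT brain mean was under 10. The probe ranked 86 gave 5978, 6833 and 5850 in mutant larvae and 2684, 3153 and 3468 in WT larvae, and 3.68, 3.12 and 6.49 in mutant brain against 2.42, 3.07 and 2.51 in WT brain. For such probes the brain limit of the rule compared values close to the lowest on the array (2.14). The rise of this probe from 28 hpf to 3 dpf was 4.36 ± 0.19 (SE) in WT and 4.26 ± 0.19 in mutants on the log2 scale (limma adjusted p = 1.2e-11 and 6.6e-12), with mutant values of 293, 292, 336 and 384 and WT values of 145, 133, 181 and 148 at the earlier stage. Since it too was picked after its values were seen, on arrays that the rule used, these p-values are a description.

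The direction of the embryo differences mostly held in arrays that a repeat of the choice did not use, and the 2-fold limit was met less often. When the rule was applied without the replicate 3 embryo arrays it chose 99 probes, 84 of them among the 87. In the replicate 3 arrays the mutant was above WT for 98 of the 99 at 28 hpf and for all 99 at 3 dpf, where it was above WT for 51.7% and 44.2% of all probes. The median d was 1.38 in the arrays that chose and 1.32 in the arrays held out at 28 hpf, and 1.59 and 1.47 at 3 dpf. A difference of at least 2-fold was met by 72 of the 99 at 28 hpf, by 75 at 3 dpf and by 55 at both (55.6%, against 1.12% of all probes). The 1 exception had a held-out d of -0.68 at 28 hpf. With replicate 2 held out instead, 68 of 88 chosen probes reached 2-fold at both stages (77.3%, against 1.47% of all probes), and with replicates 1 and 1.1 held out 79.8% of 89 did (against 1.38%). One array per genotype and stage, or 2 for replicates 1 and 1.1 at 28 hpf, leaves no spread to test against, so these are counts only. The arrays held out were normalized to the same distribution as those that chose, and their pools may share clutches. They may therefore not be independent, and no cause of the differences was tested.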

How the data were processed

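The authors deposited 1 table of fluorescence intensity values, quantile normalized and on a linear scale (2.14 to 589725), for 43603 probes on 20 one-colour Agilent zebrafish arrays. All 20 columns were matched to samples by the sample identifiers that head them. The sources used here do not state how the slides were scanned and corrected for background or which arrays shared a slide, and slides were therefore not tested as batches. Precision is limited by the 20 arrays. The study re-annotated the probes on the danRer11 build and kept 1 of several probes for a gene, and neither step was applied here. Intensities were converted to log2 without an offset, and the rule was applied by script. The members, lists and tests were chosen with earlier results of these data known. Group means of all 6 groups were fitted in limma 3.58.1 (R 4.3.3; 14 residual and 1.79 prior degrees of freedom), with two-sided tests and Benjamini-Hochberg adjustment over all probes for each contrast. The fit was tested on simulated data. The rule for named items took 15 probes by the smaller embryo difference, genes with several probes, list members, the 5 brightest and the 3 on each side of the threshold. Since no probe carried a gene name, it reduced to the first 2 probes, and the lists were not used. Other probes are described by rank and were chosen after their values were seen. The alternatives were another offset, floors, fold limits, medians set equal, the average of samples 1 and 1.1, other fits and each array left out.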

Additional observations from a re-analysis of the deposited data

Results flagged for a closer look

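In the 28 hpf groups of 4, the highest or lowest array was set against the others by its gap over the group's range, against Dixon's limit, which chance passes in about 1 of 20 groups. Over the 87 probes, 12 of 174 groups passed the limit (6.90%), and 5 of the 12 lay in mutant replicate 3. The others lay in mutant replicate 2 (1), WT replicate 2 (3) and WT replicate 3 (3). Among the 8 highest-ranked probes there were 4. A_15_P182221 gave 30.1 in mutant replicate 3, where the other mutant arrays gave 447 to 730, and without that array its d at 28 hpf was 7.25. The rank 4 probe gave 267 in the same array, where the others gave 224 to 228. In WT replicate 2 the rank 5 probe gave 22.2, where the others gave 27.2 to 28.0, and the rank 7 probe gave 135, where the others gave 106 to 110. The cause was not tested.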

How the results depend on the processing

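The number of members depended on the limits of the rule. It was 57 on log2(intensity + 50), 45 of them among the 87, and 56 with a mutant mean of at least 200. With the embryo limit at 1.5-fold it was 358, and at 3-fold 13. With the brain limit at 1.5-fold it was 58, all among the 87. Of the 87, 28 were at least 1.5-fold higher in mutant brain and 1 at least 1.5-fold lower. With each array left out in turn it was 82 to 93, and under the other alternatives it stayed within 1.5 times of 87. On log2(intensity + 50), an alternative for these medians chosen after seeing the data, the median d was 1.07 at 28 hpf and 1.27 at 3 dpf, and that of A_15_P385830 was 4.26 and 2.48. By construction an offset shrinks the ratios of low values most. The brain d of A_15_P182221 ran from -0.0452 to 0.0150 over the arrays left out, and its sign turned to 0.015 without mutant brain replicate 2 and to 0.00034 without WT brain replicate 2. The counts of members that rose or fell between WT stages, between mutant stages and between WT larvae and brain stayed within 1.5 times under each alternative run. Same-numbered samples did not deviate together (r of -0.058 to 0.045 over 16 pairs). With the number as a replicate block, 51 members rose and 23 fell in WT from 28 hpf to 3 dpf, 52 and 23 in mutants, and 51 were higher and 23 lower in WT brain than in WT larvae. The share of all probes called was taken for the main fit only. The counts from other fits therefore show how far the member counts moved, and nothing else is read from them. The choice of 1 probe per gene was not run, because no table names the genes. The choices with replicate 2 or with replicates 1 and 1.1 held out were added after seeing the data.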
